A study of Mus musculus with 8 samples.

Results

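The IL-1 family genes examined here were the ligands Il1a, Il1b and Il18, the antagonists Il1rn and Il18bp, and the receptor chains Il1r1, Il1r2 and Il1rap. Members were the array probe sets annotated to one of these 8 genes and to no other gene, which gave 15 of 45101 probe sets. Il1rap had 5 probe sets, Il1rn had 3, Il1r1 had 2, and each of the other genes had 1. They were measured in bone marrow-derived macrophages (BMDM) from wild-type (WT) mice and from mice with a knockout of miR-155 (miR-155-/-, also KO), a microRNA made in activated macrophages. The labels give C57Bl/6 for the WT mice and no strain for the knockout, and the study's methods give C57BL6/J for both. Femur marrow from 2 donors of each genotype was kept frozen, thawed and grown into macrophages for 7 days in medium with 15% L929-conditioned medium, a source of macrophage growth factor. Cells of every donor received LPS (100 ng/ml), a bacterial cell wall component, either alone for 24 h or after 5 min with the anti-inflammatory cytokine IL-10 (20 ng/ml). This gave WT(LPS), WT(LPS + IL-10), miR-155-/-(LPS) and miR-155-/-(LPS + IL-10), with 2 arrays in each of the 4 groups and with both arrays of a donor forming a pair. All 8 arrays carry LPS, so the response to LPS itself was not measured. By the labels the WT donors were female and the knockout donors male, so genotype and sex cannot be told apart.

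IL-1alpha and IL-1beta act through the same receptor, in which IL1R1 binds the ligand and the accessory chain IL1RAP is then recruited to start signalling through MyD88 and NF-kappaB. IL-1beta and IL-18 are made as inactive precursors that caspase-1 cleaves in the inflammasome, whereas the IL-1alpha precursor is already active. The receptor antagonist encoded by Il1rn occupies IL1R1 without signalling, the decoy receptor IL1R2 captures IL-1, and the secreted IL-18 binding protein neutralises IL-18. In macrophages LPS induces several of these genes, and IL-10 is known to restrain the transcription of inflammatory cytokines.

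The microRNA removed in the knockout is shown first, with its seed (bases 2 to 8) in capitals, because it defines the genotype comparison. The sequence is the RefSeq entry of GRCm38.p6, from chromosome 16, plus strand.
mmu-miR-155-5p: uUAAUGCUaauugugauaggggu
Promoters are shown next for Il1a and Il18bp, the members that passed the test in a comparison, for the bright ligand gene Il1b, and for the first and the last listed start of Il1rn, which was read by 3 probe sets. RefSeq (GRCm38.p6) gave 11 promoters for the 8 genes, each of 250 bases before and 50 bases after a transcription start, and all are written 5′ to 3′ on the strand of the gene. Capitals mark an AP-1 motif (TGANTCA).
Il1a, chr2:129309923-129310222, minus strand: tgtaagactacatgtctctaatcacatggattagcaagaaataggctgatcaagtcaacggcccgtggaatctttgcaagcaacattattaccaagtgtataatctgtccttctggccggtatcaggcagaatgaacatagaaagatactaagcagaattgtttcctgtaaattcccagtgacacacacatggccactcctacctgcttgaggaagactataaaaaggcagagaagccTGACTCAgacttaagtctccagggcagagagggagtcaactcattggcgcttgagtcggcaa
Il1b, chr2:129371090-129371389, minus strand: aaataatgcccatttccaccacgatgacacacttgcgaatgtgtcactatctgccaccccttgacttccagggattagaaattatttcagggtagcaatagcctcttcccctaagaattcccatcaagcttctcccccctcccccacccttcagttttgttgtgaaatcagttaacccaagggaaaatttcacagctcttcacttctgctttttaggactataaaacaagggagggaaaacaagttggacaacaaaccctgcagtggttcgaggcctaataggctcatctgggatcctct
Il18bp, chr7:102018183-102018482, minus strand: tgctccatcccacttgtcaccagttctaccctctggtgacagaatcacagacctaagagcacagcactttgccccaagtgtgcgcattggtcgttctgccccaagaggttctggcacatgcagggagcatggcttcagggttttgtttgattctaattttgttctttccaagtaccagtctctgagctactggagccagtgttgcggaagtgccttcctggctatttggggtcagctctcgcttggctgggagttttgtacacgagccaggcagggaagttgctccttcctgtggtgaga
Il1rn start 1, chr2:24336610-24336909, plus strand: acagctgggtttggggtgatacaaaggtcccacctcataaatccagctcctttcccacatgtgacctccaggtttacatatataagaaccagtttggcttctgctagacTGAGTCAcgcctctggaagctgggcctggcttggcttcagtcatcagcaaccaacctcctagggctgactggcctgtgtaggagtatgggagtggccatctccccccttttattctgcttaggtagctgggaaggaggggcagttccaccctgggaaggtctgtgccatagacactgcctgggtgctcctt
Il1rn start 3, chr2:24345121-24345420, plus strand: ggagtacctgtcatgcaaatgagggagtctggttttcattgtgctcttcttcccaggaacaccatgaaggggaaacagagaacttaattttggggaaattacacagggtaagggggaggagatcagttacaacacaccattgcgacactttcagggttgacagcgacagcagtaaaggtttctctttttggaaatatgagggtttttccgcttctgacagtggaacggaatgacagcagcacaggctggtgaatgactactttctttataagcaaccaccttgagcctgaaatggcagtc

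Both strands of the 11 windows were searched for 4 motifs. The AP-1 motif was found in Il1a, as TGACTCA from 12 to 6 bases before the start, and at the first start of Il1rn, as TGAGTCA from 141 to 135 bases before it. TGANTCA occurs in 7.8% of the 32851 promoters of the same length in the table. A STAT motif (TTCNNNGAA) was found in Il1r2, against 8.3% of all promoters. A core of the interferon response element (GAAANNGAA) lay in Il1rap, against 8.6%, and a kappaB motif at the second start of Il1r1, against 11.2%. None of the 4 was matched in the windows of Il1b, Il18 or Il18bp, which says only that these letters are not there. The later starts of Il1rn lie 8431 and 8511 bases downstream of the first, and the places of the 3 Il1rn probe sets along the transcripts were not analysed here.

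The labelled cell type was checked first. Macrophage markers such as Adgre1, Csf1r, Cd68 and Lyz2 were high on all 8 arrays. The summed level of the 11 measured macrophage markers lay between 15.74 and 15.82 on the log2 scale. Such a sum is governed by its brightest genes and can hide changes in the others. Under LPS, Mrc1, Cd163 and Mertk were lower in the knockout than in WT, at log2 fold changes of −2.71, −1.66 and −0.94. Mertk did not pass the test (adjusted p = 0.106 by limma). In this comparison 6 of the 11 were above 0 and 5 below. The summed level of 12 fibroblast and stromal markers was 13.40 and 13.44 on both arrays of WT donor 1 and between 7.02 and 9.18 on the other arrays, and 11 of the 12 were highest in that donor. For neutrophil and granulocyte markers the summed level of the 11 measured was 13.46 to 13.49 (LPS) and 13.83 to 13.84 (LPS + IL-10) on the WT arrays, against 11.53 to 11.85 (LPS) and 12.79 to 13.05 (LPS + IL-10) on the knockout arrays, with 5 of the 11 under 4 on every array. Summed levels of T and NK cell, B cell, dendritic cell, and mast cell, basophil and erythroid markers were low, at most 8.49. Some single genes of these lists were higher in 1 donor. Ighm read 7.87 and 7.85 in WT donor 2 against 4.90 to 5.54 on the other arrays, and Cd3e 4.14 and 4.71 against 2.49 to 3.27. In WT donor 1, Mcpt8 read 6.13 and 5.19 against 2.87 to 3.38. Itgax read 5.31 to 7.28 and Prf1 6.59 to 6.97 over all arrays. The host transcript of the deleted microRNA, Mir155hg, read 2.73 and 4.02 (LPS) and 2.31 and 2.01 (LPS + IL-10) on the WT arrays, against 2.14 and 2.19 (LPS) and 1.70 and 2.00 (LPS + IL-10) on the knockout arrays. These are dim values, with the mean at the 26.9th percentile of all probe sets. The groups miR-155-/-(LPS) and WT(LPS) did not overlap (log2 fold change −1.21, SE 0.41, unadjusted p = 0.0203, adjusted p = 0.246 by limma). In this comparison 21.3% of all probe sets were lower without overlap. The difference did not pass the test, and whether the probe set lies in the deleted part was not analysed here. In RNA from whole cultures, fewer cells of a type and less RNA per cell cannot be told apart.

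**Figure D1:**
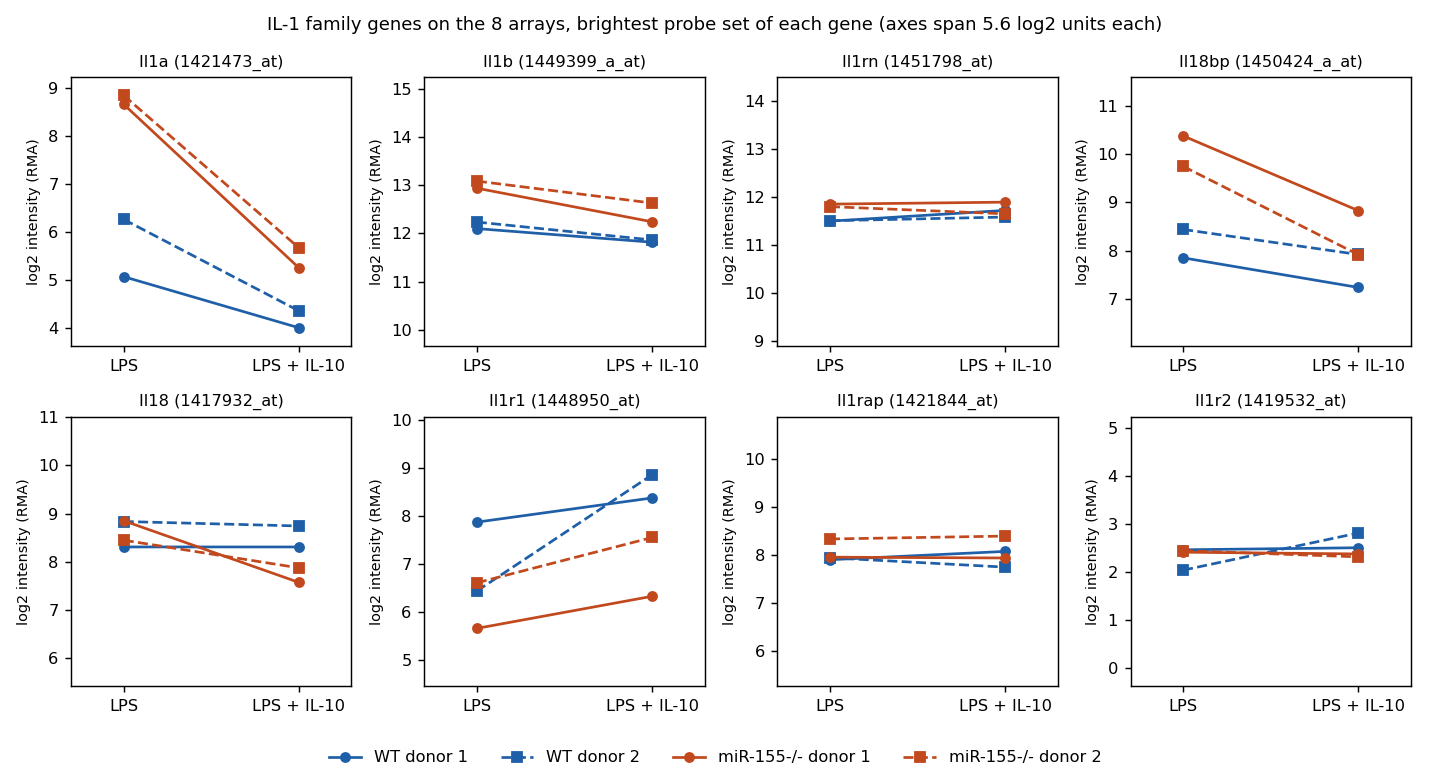
Log2 intensity (RMA, vertical axis) of the brightest probe set of each of the 8 genes with LPS and with LPS + IL-10. Each line joins both arrays of a donor (blue, WT; orange, miR-155-/-; circles and solid lines, donor 1; squares and dashed lines, donor 2), and the vertical axes of all panels cover the same number of log2 units. Il1a lies between 8.65 and 8.84 in miR-155-/-(LPS) and at 6.26 or below on every other array, and the Il1rn and Il1rap lines are nearly flat.

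Il1a was the member with the widest range over the arrays. Its level was lowered by IL-10 in miR-155-/- BMDM and, under LPS alone, was higher in the knockout than in WT. The log2 intensity of Il1a was 5.07 and 6.26 (LPS) and 4.003 and 4.36 (LPS + IL-10) on the WT arrays, against 8.65 and 8.84 (LPS) and 5.25 and 5.67 (LPS + IL-10) on the knockout arrays. The 2 miR-155-/-(LPS) arrays stood above the other 6, and each of the 4 donors was lower with IL-10 than without it. In miR-155-/- BMDM Il1a fell by 3.29 on the log2 scale with IL-10, which is 9.77-fold (SE 0.31, adjusted p = 0.00489). In WT BMDM the groups did not overlap either, at a log2 fold change of −1.48 (SE 0.31), but the gene did not pass the test (unadjusted p = 0.00197, adjusted p = 0.221). The WT(LPS + IL-10) values lie near the median of all probe sets on those arrays (3.96 and 3.89), so the size of this fall is uncertain. With 2 arrays a group, absence of overlap is frequent, and 32.8% of all probe sets showed it in this comparison and 47.9% with IL-10 in the knockout. Averaged over both genotypes, Il1a fell by 2.39 (SE 0.22, adjusted p = 0.0036), and this call held with each of the 8 arrays left out. Under LPS alone Il1a was 8.48-fold higher in the knockout than in WT, a log2 fold change of 3.08 (SE 0.36, adjusted p = 0.0141).

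The donors differed among themselves in Il1a, with IL-10 differences of −1.06 and −1.90 in the WT donors and −3.40 and −3.17 in the knockout donors. The genotype difference in the IL-10 effect was −1.80 (SE 0.44, unadjusted p = 0.00443), which did not pass the test over all probe sets (adjusted p = 0.315). Its size is uncertain for the same reason as that of the WT fall. Under IL-10, Il1a was 1.28 higher on the log2 scale in the knockout without passing the test (adjusted p = 0.357). The call in miR-155-/- BMDM with IL-10 was lost without the first miR-155-/-(LPS) array (adjusted p = 0.061), and the call between genotypes under LPS was lost without either miR-155-/-(LPS) array (adjusted p = 0.122 and 0.0909). Without both arrays of WT donor 1, the donor with high stromal markers, the log2 fold change of Il1a was −2.60 in the average and 2.49 between genotypes under LPS. In the knockout with IL-10 it stayed at −3.29, since that comparison holds no WT array.

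Il1b, by contrast, was among the brightest signals on the arrays, with its mean at the 99.2th percentile. Its log2 intensity was 12.10 and 12.24 (LPS) and 11.82 and 11.86 (LPS + IL-10) on the WT arrays, against 12.94 and 13.09 (LPS) and 12.24 and 12.63 (LPS + IL-10) on the knockout arrays. Each of the 4 donors read lower with IL-10, by 0.28 to 0.70 in size, and in every pair of groups that differ in 1 factor the arrays did not overlap. None of these differences passed the test, and absence of overlap was found in 32.8% to 47.9% of all probe sets in these comparisons. The log2 fold change with IL-10 was −0.33 in WT (unadjusted p = 0.0508) and −0.58 in the knockout (SE 0.14, unadjusted p = 0.00426, adjusted p = 0.0895). The difference between genotypes under LPS was 0.85 (SE 0.16, adjusted p = 0.0604), and the IL-10 effects of the genotypes differed by −0.25 (unadjusted p = 0.246). Il1b is thus a case in which small differences were ordered alike in all donors, and the main fit did not call it. Its values lie close to the highest of any probe set on the arrays (13.66 to 13.73). Whether the signal was compressed there was not tested, so the size of its differences is uncertain. As an alternative, limma with an intensity trend and robust hyperparameters called the gene in the knockout with IL-10 (adjusted p = 0.00953) and between genotypes under LPS (adjusted p = 0.00367).

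**Figure D2:**
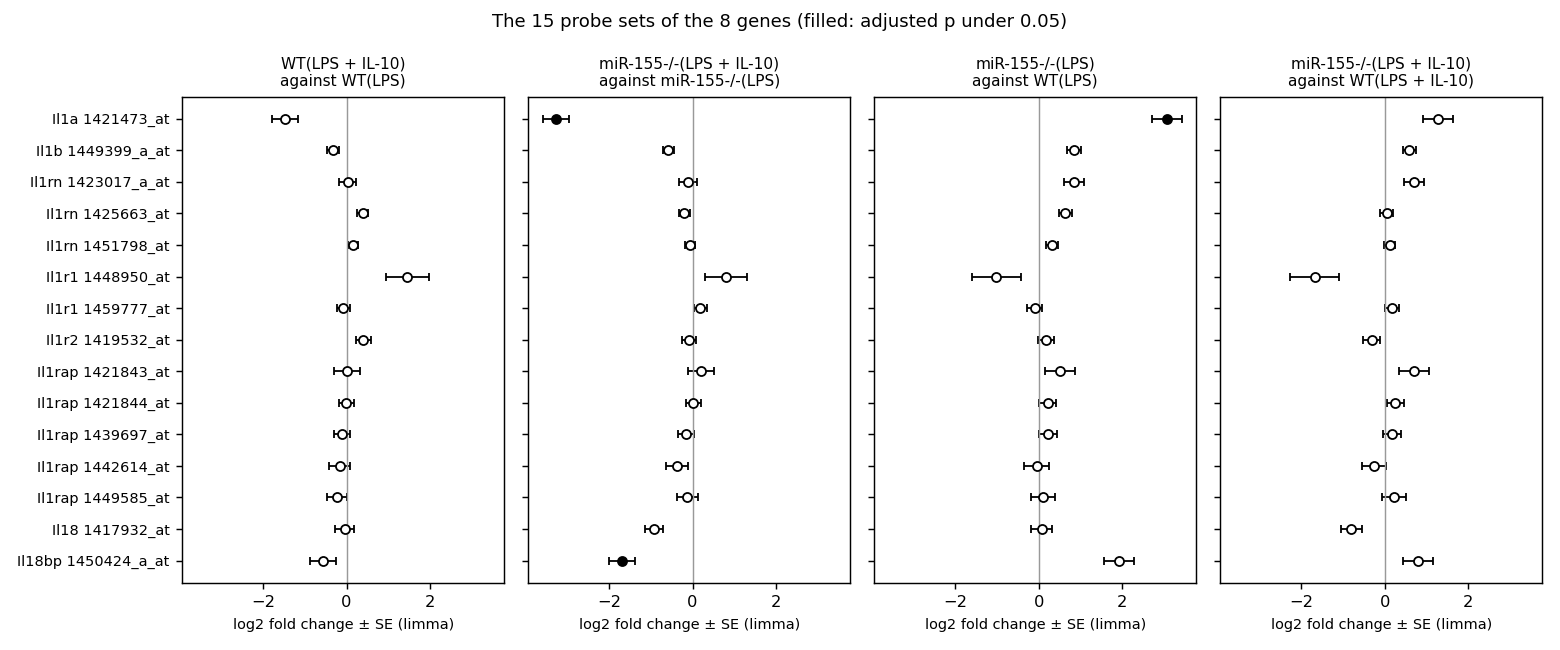
Log2 fold change with its standard error (limma, horizontal axis) for the 15 probe sets of the 8 genes in 4 comparisons. Filled points passed an adjusted p of 0.05, which only Il1a (−3.29 and 3.08) and Il18bp (−1.70) did.

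The receptor antagonist gene Il1rn was measured by 3 probe sets, which are given one by one. For 1425663_at the log2 intensity was 10.40 and 10.54 (LPS) and 10.77 and 10.95 (LPS + IL-10) on the WT arrays, against 11.16 and 11.06 (LPS) and 11.06 and 10.75 (LPS + IL-10) on the knockout arrays. This probe set was higher with IL-10 in both WT donors, by 0.37 and 0.41, and lower in both knockout donors, at −0.10 and −0.31. The genotype difference in this effect was −0.59 (SE 0.19, unadjusted p = 0.016, adjusted p = 0.402), and neither it nor the WT effect of 0.39 (unadjusted p = 0.022, adjusted p = 0.468) passed the test.

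For 1423017_a_at the log2 intensity was 9.14 and 8.98 (LPS) and 9.37 and 8.81 (LPS + IL-10) on the WT arrays, against 9.97 and 9.84 (LPS) and 10.07 and 9.53 (LPS + IL-10) on the knockout arrays. Here all knockout arrays lay above all WT arrays, while the IL-10 differences followed the donor number, at 0.22 and 0.11 in donors 1 and −0.17 and −0.32 in donors 2. For 1451798_at the values were 11.49 and 11.50, then 11.72 and 11.58, then 11.85 and 11.79, then 11.89 and 11.64 in the same order of groups, a range of 0.40 over all arrays. Under LPS all 3 probe sets were higher in the knockout without overlap, as were 25.3% of all probe sets, by 0.84 (1423017_a_at, adjusted p = 0.174), 0.64 (1425663_at, adjusted p = 0.117) and 0.32 (1451798_at, adjusted p = 0.365). Under IL-10 the same difference was 0.71 for 1423017_a_at (unadjusted p = 0.0204, adjusted p = 0.452), 0.05 for 1425663_at and 0.12 for 1451798_at. None of the 3 passed the test in any comparison.

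**Figure D3:**
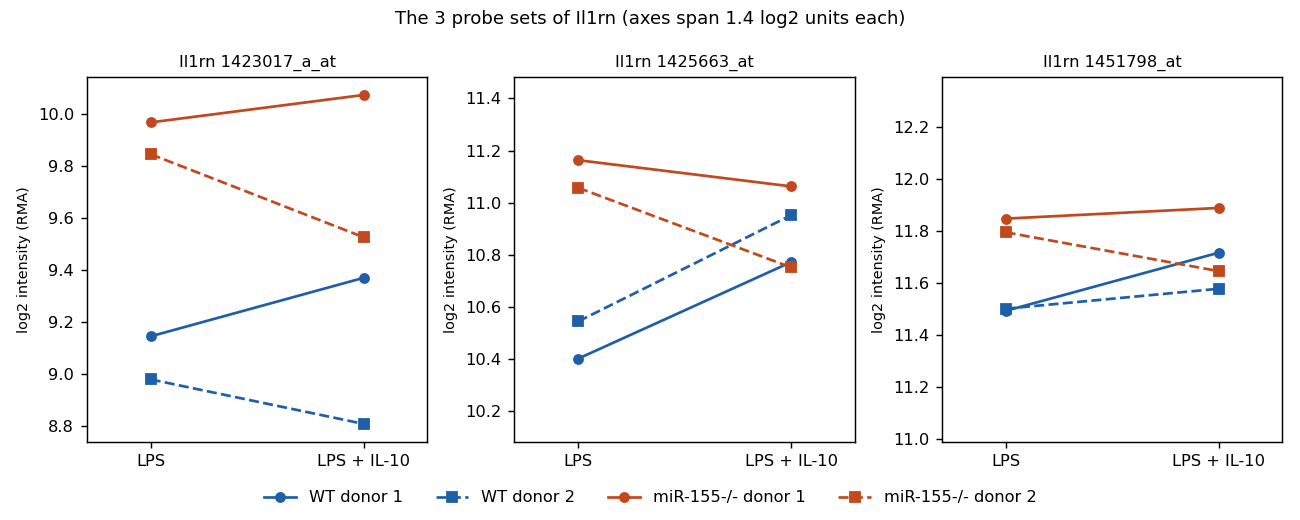
Log2 intensity (RMA, vertical axis) of the 3 probe sets of Il1rn with LPS and LPS + IL-10, with lines joining both arrays of a donor (blue, WT; orange, miR-155-/-). In 1425663_at both WT lines go up (0.37 and 0.41) and both knockout lines go down (−0.10 and −0.31), whereas in 1423017_a_at the knockout lines lie above the WT lines throughout.

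Among the receptor chains, Il1r1, the signalling receptor, varied most. The log2 intensity of its brighter probe set, 1448950_at, was 7.87 and 6.44 (LPS) and 8.37 and 8.85 (LPS + IL-10) on the WT arrays, against 5.66 and 6.61 (LPS) and 6.33 and 7.55 (LPS + IL-10) on the knockout arrays. It read higher with IL-10 in each of the 4 donors, by 0.50 and 2.42 in WT and 0.67 and 0.94 in the knockout, so that WT donor 2 supplied most of the WT difference. The log2 fold change was 1.46 in WT (SE 0.51, unadjusted p = 0.0248, adjusted p = 0.475), 0.81 in the knockout (adjusted p = 0.495) and 1.13 on average (adjusted p = 0.189). Under IL-10 the knockout arrays were lower than the WT arrays without overlap, as were 15.7% of all probe sets, at −1.68 (SE 0.59, adjusted p = 0.478). None passed the test.

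Fibroblasts also express Il1r1, and the stromal marker Col1a1 read 11.63 and 11.86 in WT donor 1, 6.30 and 7.18 in WT donor 2, 4.67 and 4.06 in knockout donor 1, and 8.00 and 7.90 in knockout donor 2, each with LPS and then LPS + IL-10. Within each genotype the donor with more Col1a1 had the higher Il1r1 under LPS. Under IL-10 this order held in the knockout, while in WT the donor with less Col1a1 was higher in Il1r1. Without both arrays of WT donor 1 the log2 fold change of Il1r1 between genotypes was −0.30 under LPS, against −1.02 with them, and −1.92 under IL-10. The part of stromal cells in the Il1r1 values was not tested.

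**Figure D4:**
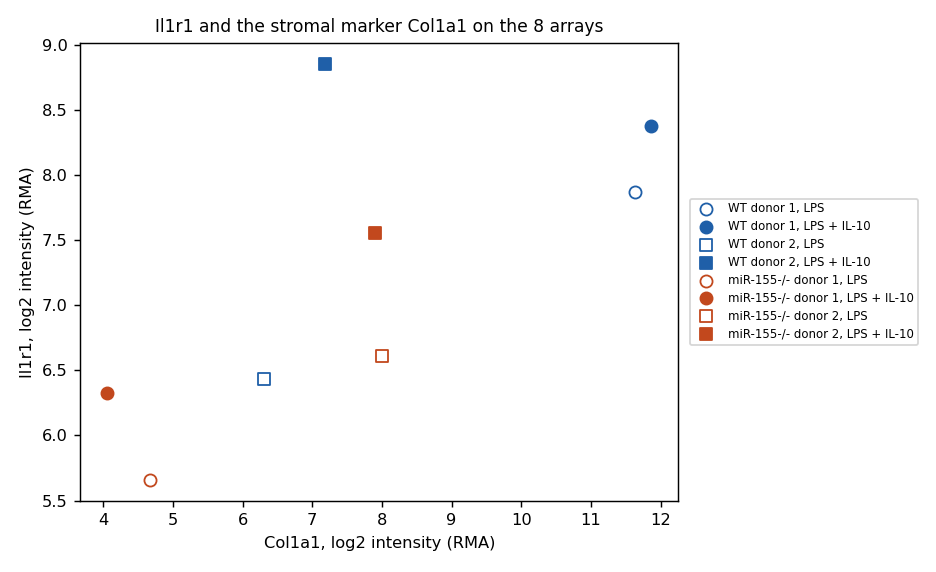
Log2 intensity (RMA) of Il1r1 (1448950_at, vertical axis) against that of the stromal marker Col1a1 (horizontal axis) on the 8 arrays. Open symbols are LPS and filled symbols LPS + IL-10 (blue, WT; orange, miR-155-/-; circles, donor 1; squares, donor 2), and the filled symbol of each donor lies above its open one, while Col1a1 separates the donors (from 4.06 to 11.86).

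The second Il1r1 probe set, 1459777_at, was near the bottom of the array (1.38 to 1.95, mean at the 4.8th percentile). Il1r2, the decoy receptor, was also dim, at 2.46 and 2.04 (LPS) and 2.51 and 2.81 (LPS + IL-10) on the WT arrays, against 2.41 and 2.44 (LPS) and 2.38 and 2.32 (LPS + IL-10) on the knockout arrays. A difference of 0.41 with IL-10 in WT (unadjusted p = 0.0494, adjusted p = 0.538) rested on WT donor 2, which differed by 0.77 against 0.04 in WT donor 1.

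Il1rap, the accessory chain that the IL-1, IL-33 and IL-36 receptors share, had the narrowest range of the 3 receptor genes when each is taken by its brightest probe set, at 0.65 against 0.77 for Il1r2 and 3.20 for Il1r1. Its brightest probe set, 1421844_at, had a log2 intensity of 7.90 and 7.94 (LPS) and 8.07 and 7.75 (LPS + IL-10) on the WT arrays, against 7.95 and 8.33 (LPS) and 7.94 and 8.39 (LPS + IL-10) on the knockout arrays. The log2 fold change with IL-10 was −0.01 in WT and 0.02 in the knockout (SE 0.18 in both). Of the other 4 probe sets, 1449585_at ranged from 5.22 to 6.05, 1421843_at from 4.05 to 5.41, 1442614_at from 1.68 to 2.76 and 1439697_at from 1.35 to 2.06. For 1421843_at the knockout arrays under IL-10 lay above the WT arrays by 0.71 (unadjusted p = 0.0868), and none of the 5 passed the test in any comparison.

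Il18 and its antagonist Il18bp both read lower with IL-10 in the knockout. The log2 intensity of Il18 was 8.30 and 8.83 (LPS) and 8.30 and 8.74 (LPS + IL-10) on the WT arrays, against 8.85 and 8.44 (LPS) and 7.57 and 7.87 (LPS + IL-10) on the knockout arrays. The miR-155-/-(LPS + IL-10) arrays were the lowest of the 8, and the WT donors differed by less than 0.1 with IL-10. In the knockout the log2 fold change was −0.93 (SE 0.22, unadjusted p = 0.00388, adjusted p = 0.0855). In WT it was −0.05 (SE 0.22), and the difference of −0.88 between them did not pass the test (unadjusted p = 0.0251, adjusted p = 0.432).

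Il18bp read 7.85 and 8.44 (LPS) and 7.23 and 7.92 (LPS + IL-10) on the WT arrays, against 10.39 and 9.75 (LPS) and 8.83 and 7.91 (LPS + IL-10) on the knockout arrays. As for Il1a, the 2 miR-155-/-(LPS) arrays were above the other 6, and all 4 donors were lower with IL-10. In the knockout Il18bp fell by 1.70 with IL-10, 3.24-fold (SE 0.32, adjusted p = 0.0436). This call was close to the limit and was lost with each of the 8 arrays left out (adjusted p up to 0.263) and without both arrays of WT donor 1 (adjusted p = 0.0988). In WT the log2 fold change was −0.57 (adjusted p = 0.61), and the difference between genotypes was −1.13 (SE 0.45, unadjusted p = 0.04, adjusted p = 0.463). Under LPS the knockout was 1.93 higher (SE 0.36, adjusted p = 0.0602), and under IL-10 it was 0.80 higher with overlapping groups.

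The 15 probe sets were also counted against all 45011 tested, by an adjusted p under 0.05 (called) and by the limits of the study's own methods, an unadjusted p under 0.05 with more than a 2-fold change (selected). The comparisons share arrays, miR-155-/-(LPS) being part of 4 of the 6, so their counts are not independent. Probe sets of the same gene are not independent either, and Il1rap gives 5 of the 15, Il1rn 3 and Il1r1 2. In WT BMDM with IL-10, 0 of 15 were called by limma against 0.0311% of all probe sets, 4 of 15 had an unadjusted p under 0.05 against 9.27%, and 2 (Il1a and Il1r1) were selected against 0.689%. In miR-155-/- BMDM with IL-10, 2 of 15 were called, both lower, against 2.68%, 4 had an unadjusted p under 0.05 against 17.3%, and the same 2 were selected against 2.51%. For IL-10 averaged over genotypes, 1 was called against 2.59%, 5 had an unadjusted p under 0.05 against 16.5%, and 3 (Il1a, Il18bp and Il1r1) were selected against 1.22%. Between miR-155-/-(LPS) and WT(LPS), 1 was called against 1.46%, 5 had an unadjusted p under 0.05 against 13.8%, and 2 (Il1a and Il18bp) were selected against 2.52%. Under IL-10, 0 were called between genotypes by limma against 0.0711%, 5 had an unadjusted p under 0.05 against 8.94%, and 2 (Il1a and Il1r1) were selected against 1.22%. For the genotype difference in the IL-10 effect, 0 were called by limma against 0.0333%, 4 had an unadjusted p under 0.05 against 10.4%, and 2 (Il1a and Il18bp) were selected against 1.76%. With 15 members, each background share of called or selected probe sets corresponds to fewer than 1 probe set. Groups did not overlap for 7 of 15 with IL-10 in WT, 4 higher against 16.1% of all probe sets and 3 lower against 16.7%. With IL-10 in the knockout 0 were higher without overlap against 24.5% and 5 lower against 23.4%. Between genotypes under LPS there were 7 higher against 25.3% and 0 lower against 21.3%, 46.5% of all probe sets showing no overlap in either direction. Under IL-10 there were 4 higher against 23.2% and 3 lower against 15.7%, or 7 against 38.9% in either direction. The median log2 fold change of the 15 was −0.12 with IL-10 in the knockout and 0.22 between genotypes under LPS, against 0.01 and 0.02 over all probe sets.

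Other ligands and receptors of the IL-1 family were dim for the most part, with 12 of 13 listed genes measured (Il1rl1 was not analysed here). Il36a, Il36g and Il1rl2 were the exceptions. Il36a (listed as Il1f6) read 4.07 and 4.90 (LPS) and 3.83 and 4.09 (LPS + IL-10) on the WT arrays, against 6.49 and 7.36 (LPS) and 3.73 and 2.95 (LPS + IL-10) on the knockout arrays. Like Il1a it was highest in miR-155-/-(LPS), and it fell by 3.58 with IL-10 in the knockout (SE 0.38, adjusted p = 0.00668) and by 2.05 on average (adjusted p = 0.0132). The miR-155-/-(LPS + IL-10) values lie below the median of all probe sets on those arrays (3.88), so the size of the fall is uncertain. With values under an array's median set to it, an alternative chosen after seeing the data, Il36a fell by 3.04 in the knockout (adjusted p = 0.00545) and by 1.75 on average (adjusted p = 0.0103). That setting removes the spread between the miR-155-/-(LPS + IL-10) arrays (SE 0.30 in the knockout), so its smaller p-values add no support. The knockout call was lost without the second miR-155-/-(LPS + IL-10) array (adjusted p = 0.0518). The average was not called without both arrays of WT donor 1 (adjusted p = 0.0553), nor without either WT(LPS + IL-10) array or the second WT(LPS) array (adjusted p up to 0.0721). Il36g (listed as Il1f9) fell by 1.16 with IL-10 in the knockout (SE 0.17, adjusted p = 0.0199), a call that was lost without any of the 4 knockout arrays (0.123 to 0.14). Il1rl2, the receptor chain for IL-36, was 1.58 lower in the knockout under IL-10 (SE 0.17, adjusted p = 0.0456), a call that was lost with any array left out (adjusted p up to 0.339).

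Of 12 listed genes for maturation and release of IL-1beta and IL-18, 10 were measured, and 2 of them changed with IL-10 in the knockout, in opposite directions. Nlrp3, the sensor of the main inflammasome, read 10.46 and 10.41 (LPS) and 9.26 and 9.41 (LPS + IL-10) on the knockout arrays, and fell by 1.10 (SE 0.14, adjusted p = 0.0131). Pycard, the adaptor that links the sensor to caspase-1, read 9.74 and 9.98 and then 11.11 and 11.11, and rose by 1.25 (SE 0.14, adjusted p = 0.00716). The Nlrp3 call was lost without any of the 4 knockout arrays (adjusted p = 0.0774 to 0.127), and that of Pycard without any of them but the second miR-155-/-(LPS) array (adjusted p = 0.0641 to 0.0833). In WT the values were −0.36 for Nlrp3 (adjusted p = 0.508) and 0.36 for Pycard (adjusted p = 0.499), and in the average over genotypes Nlrp3 fell by 0.73 (adjusted p = 0.0154) and Pycard rose by 0.80 (adjusted p = 0.00974). Neither average was called without both arrays of WT donor 1 (adjusted p = 0.0506 and 0.0541). The Nlrp3 average was lost with every array left out but the first WT(LPS) array (up to 0.0828), and the Pycard average without the second WT(LPS) or the first miR-155-/-(LPS) array (0.0573 and 0.0527). Casp1, which encodes the cleaving enzyme itself, stayed between 11.04 and 11.58 on all arrays. Casp4, a caspase of the noncanonical inflammasome, was lower in the knockout without passing the test, at −1.09 under LPS (adjusted p = 0.0575) and −1.74 under IL-10 (adjusted p = 0.0613).

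Of 23 genes for signalling below the receptors, 20 were measured. Irak2, a kinase-like adaptor of the receptor complex, read 7.86 and 8.25 (LPS) and 7.48 and 7.56 (LPS + IL-10) on the WT arrays, against 9.11 and 9.15 (LPS) and 8.11 and 7.97 (LPS + IL-10) on the knockout arrays. It was highest in miR-155-/-(LPS), and fell by 1.09 with IL-10 in the knockout (adjusted p = 0.0133) and by 0.82 on average (adjusted p = 0.0105, and 0.04 without both arrays of WT donor 1). The knockout call was lost without any of the 4 knockout arrays (adjusted p = 0.0841 to 0.108), and the average without either miR-155-/-(LPS) array or the second array of either IL-10 group (0.0513 to 0.0592). Under LPS, Irak2 was 1.08 higher in the knockout (adjusted p = 0.0318) and Peli1, a ubiquitin ligase that acts on IRAK proteins, was 0.80 higher (adjusted p = 0.0395). Both genotype calls were lost with any array left out (adjusted p up to 0.185 and 0.242) and without both arrays of WT donor 1 (adjusted p = 0.116 and 0.164). The median log2 fold change of these 20 genes was 0.29 between genotypes under LPS, against 0.02 over all probe sets, and −0.26 with IL-10 in the knockout, against 0.01.

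**Figure D5:**
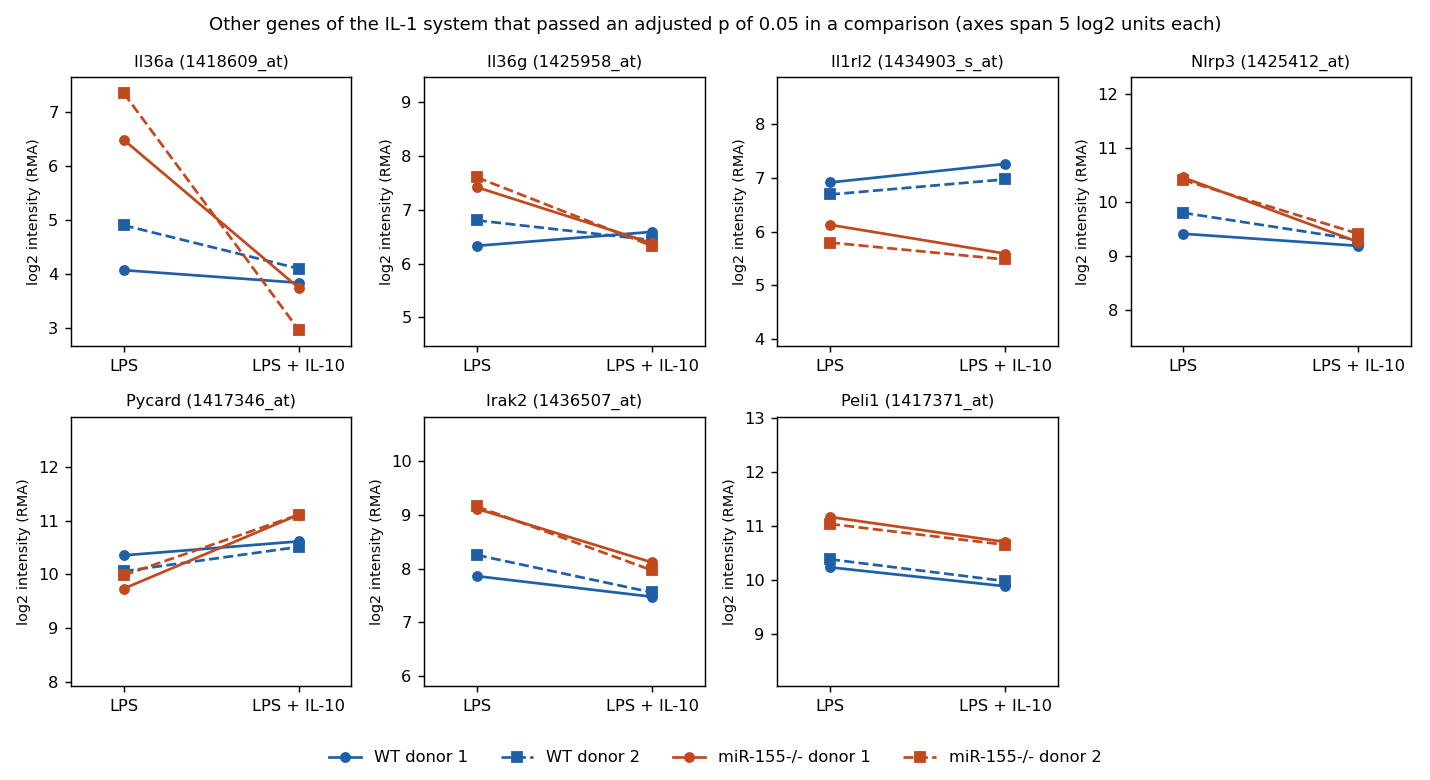
Log2 intensity (RMA, vertical axis) with LPS and LPS + IL-10 of the 7 other genes of the IL-1 system that passed an adjusted p of 0.05 in a comparison, with lines joining both arrays of a donor (blue, WT; orange, miR-155-/-). Il36a, Il36g, Nlrp3 and Irak2 are highest in miR-155-/-(LPS) and Pycard is highest in miR-155-/-(LPS + IL-10), where both arrays read 11.11.

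Where a list held no called gene in a comparison, its 2 genes with the smallest p are given as values. With IL-10 in WT, Il36rn (listed as Il1f5) was at 0.46 (adjusted p = 0.466), Il33 at 0.31 (adjusted p = 0.541), Irak2 at −0.54 (adjusted p = 0.322) and Peli1 at −0.38 (adjusted p = 0.397). Under LPS, Il36a was at 2.44 between genotypes (adjusted p = 0.0518), Il1rl2 at −0.84 (adjusted p = 0.0719) and Nlrp3 at 0.83 (adjusted p = 0.0666). Under IL-10, Pycard was at 0.55 (adjusted p = 0.366), Peli1 at 0.75 (adjusted p = 0.145) and Peli2 at −0.87 (adjusted p = 0.325). For the genotype difference in the IL-10 effect, the values were −3.06 for Il36a (adjusted p = 0.23), −1.10 for Il36g (adjusted p = 0.285), 0.89 for Pycard (adjusted p = 0.285), −0.74 for Nlrp3 (adjusted p = 0.349), −0.55 for Irak2 (adjusted p = 0.436) and 0.41 for Tollip (adjusted p = 0.468).

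The genes whose pattern over the 8 arrays was most like that of a member were sought among the 2379 probe sets with 1 symbol, a mean of at least 6 and a range of at least 1. Il1a was followed most closely by Rel (Pearson r = 0.995), Birc3 (0.993) and Glg1 (0.992), where Rel encodes an NF-kappaB subunit. For Il1b they were Cep83 (0.988), Tlk2 (0.986) and Rapgef5 (0.983), and for Il18bp Slamf7 (0.993), Trim25 (0.991) and C130026I21Rik (0.991). Il1rn (1451798_at) was nearest to Cd300lf (0.959), Gadd45a (0.928) and Flrt3 (0.896), Il18 to Slc7a11 (0.931), Mefv (0.921) and Cmklr1 (0.907), and Il1r1 to Atxn1 (0.945), Adm (0.944) and Dynll1 (0.934). The nearest were Haus2 (0.937), Tmem87a (0.92) and Ccr2 (0.909) for Il1rap, and Phf13 (0.927), Cep170b (0.923) and Twnk (0.897) for Il1r2. Il1rn (range 0.40), Il1rap (0.65) and Il1r2 (0.77) varied less than the range of 1 asked of the candidates. These correlations describe 8 arrays that share donors and treatments, and the highest of 2379 candidates is always high.

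Some genes of the cell type lists, the macrophage list among them, differed between the same groups. Under LPS, S100a8, S100a9, Mmp8 and Mmp9 of the neutrophil list were lower in the knockout, at −1.17 (adjusted p = 0.0141), −3.12 (adjusted p = 0.0153), −2.40 (adjusted p = 0.0463) and −3.06 (adjusted p = 0.00538) on the log2 scale. Of the other 7 measured genes of that list none passed the test, and 5 of the 7 read under 4 on every array. Csf3r was at 0.46 (adjusted p = 0.212) and Camp at 0.64 (adjusted p = 0.393), and the median of all 11 was −0.07. Mmp9 (−3.30, adjusted p = 0.0132) and S100a9 (−4.44, adjusted p = 0.0187) were also lower under IL-10. S100a8 and Csf3r rose with IL-10 in the knockout, by 1.59 (adjusted p = 0.00261) and 1.09 (adjusted p = 0.00886). In that comparison 7 of the 11 neutrophil markers were below 0 without passing the test, among them Mmp9 at −0.76 (adjusted p = 0.138), Camp at −0.68 (adjusted p = 0.229) and S100a9 at −0.61 (adjusted p = 0.40), and the median was −0.05. Mrc1 and Cd163, macrophage genes known to rise with IL-10, were lower in the knockout under LPS, at −2.71 (adjusted p = 0.0101) and −1.66 (adjusted p = 0.0491), and rose with IL-10 in the knockout by 2.68 and 1.69. On average over genotypes, Aif1 of the macrophage list fell by 0.48 (adjusted p = 0.0296) and Itgax of the dendritic cell list by 1.28 (adjusted p = 0.0298). Of the 12 stromal markers, Lum alone was higher in the knockout under LPS, by 2.57 (adjusted p = 0.0125). The other 11 were below 0 without passing the test, down to −4.39 for Col3a1 (adjusted p = 0.499), with a median of −2.42 over the 12. These differences rested largely on WT donor 1, in which 11 of the 12 were highest. Under LPS, Col3a1 read 10.88 in WT donor 1 and 4.48 in WT donor 2, against 2.67 and 3.92 in the knockout donors. Col1a1 was lower in WT donor 2 (6.30) than in knockout donor 2 (8.00). Whether cells other than macrophages contributed to the values of these lists or of the IL-1 family was not tested.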

How the data were processed

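The deposited values are log2 intensities of Affymetrix mouse genome arrays, which the authors made by RMA in the affy package, with limma for their own comparisons (versions: not given in the sources used here). RNA had been amplified and biotin-labelled with NuGEN kits. All 8 arrays were used, with 0 array columns of no sample. Their number, 2 a group, limits the precision.

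Symbols came from the platform annotation. Of 45101 probe sets, 64 controls and 26 sex-linked ones were left out and 45011 were tested. Groups were compared with the lmFit and eBayes functions of limma 3.58.1 in R 4.3.3, taking the donor as a random block (duplicateCorrelation, consensus correlation 0.24) and Benjamini-Hochberg adjustment over all tested probe sets. The labels' genotype and replicate number together identified each donor. Deviations from group means of arrays of the same donor correlated at 0.754 in WT and 0.23 in knockout.

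The members, the gene lists and the rule for naming genes were chosen with earlier results of these data known. The text names every member probe set, listed pathway genes with an adjusted p under 0.05 in a comparison or otherwise the 2 with the smallest p in each list, the 3 genes most like each member, and markers past that limit with Col1a1. Camp and Col3a1, and Mertk, Ighm, Cd3e, Mcpt8 and Prf1 in the cell type check, were named after their values were seen. For lists the brightest probe set of a gene was used. Alternatives were no block, a fixed block for the donor, a fit to the compared arrays alone (without a block within a genotype, where its correlation could not be estimated), a minimum mean of 6, robust hyperparameters with an intensity trend, weights for arrays, centring on array medians, keeping sex-linked probe sets, leaving out each array, both arrays of WT donor 1 left out, and a 1.5-fold limit. Promoter and microRNA sequences came from RefSeq tables of GRCm38.p6. Plots were drawn with matplotlib 3.10.9. The general methods of the study describe female littermates, whereas the labels of these arrays give males for the knockout.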

Additional observations from a re-analysis of the deposited data

Results flagged for a closer look

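In 3 of the 15 probe sets both WT donors differed in one direction with IL-10 and both knockout donors in the other. They were Il1rn 1425663_at, where the IL-10 effect in the knockout minus that in WT was −0.59 on the log2 scale (unadjusted p = 0.016, adjusted p = 0.402 by limma), Il1r2 at −0.49 (unadjusted p = 0.0837, adjusted p = 0.529) and Il1r1 1459777_at at 0.26 (unadjusted p = 0.257, adjusted p = 0.694). The last 2 are dim on every array, and none of the 3 differences passed the test. The share of all probe sets with this pattern was not counted, so the 3 are listed as values only.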

How the results depend on the processing

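All 27 member results with an unadjusted p under 0.05 kept their direction under every alternative, as did the 12 calls of pathway genes. A change of block, of variance model or of the probe sets tested leaves the difference between group means as it is. Direction could thus change only where arrays were weighted, centred or left out. Of 223 values of the member results under alternatives other than leaving out 1 array, 19 passed the limit where the reported value did not and 4 no longer passed it. For called members, a mean of at least 6 gave 1 (Il1a, adjusted p = 0.0408) in place of 0 for IL-10 in WT, 4 in place of 2 for IL-10 in the knockout, 4 in place of 1 for the average and 4 in place of 1 between genotypes under LPS. The intensity trend gave 4, 3 and 4 for the last 3. Il1a passed the minimum mean of 6, at 6.01, only through its miR-155-/-(LPS) values of 8.65 and 8.84. No call of Il1a under that minimum therefore adds support, in WT or in the other comparisons whose counts rose. The raised counts are given as values only. For IL-10 in the knockout the count was 1 with no replicate block, with only the arrays compared and without WT donor 1, and 0 to 1 with 1 array left out. For the average it was 2 with the donor as a fixed replicate block (paired fit) and 2 after centring, which shifted log2 fold changes by at most 0.043. Between genotypes under LPS it was 0 with only the arrays compared and 0 to 1 with 1 array left out. For selected members, each 2 in the main comparison except 3 for the average, the intensity trend gave 1 for IL-10 in WT and 1 between genotypes under IL-10. The 1.5-fold limit gave 5 between genotypes under LPS, 5 under IL-10 and 4 for the genotype difference in the IL-10 effect. Without WT donor 1 there were 4 between genotypes under IL-10 and 1 for the difference, which was also 1 with no replicate block. With 1 array left out the selected members ranged from 0 to 2 for IL-10 in WT, 1 to 3 for the average, 1 to 4 between genotypes under IL-10 and 1 to 3 for the difference. A higher minimum mean tests fewer probe sets, and otherwise the cause was not tested. Of 96 values of the pathway calls with 1 array left out, 56 no longer passed the limit.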
